A study of Homo sapiens with 9 samples.

Results

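ATP-binding cassette (ABC) transporters use ATP to pump compounds across membranes, and a set of them acts as the efflux arm of drug and xenobiotic handling. The set described here holds 10 genes that were chosen by name: ABCC1, ABCC2, ABCC3, ABCC4, ABCC5, ABCC6 and ABCC10 (multidrug resistance-associated proteins), ABCB1 (P-glycoprotein), ABCB4 (a phospholipid transporter) and ABCG2 (breast cancer resistance protein). The count table lists 8 of the 10 among its 11746 features with a gene number, and all 8 passed the filter on low counts; ABCC1 and ABCC6 were not analysed here. The members were chosen with earlier results of these data known and were matched by Entrez gene number. The shares of all features given beside their counts are therefore descriptions and no test.

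RNA came from HepG2 cells, a line from a human liver tumour that keeps many hepatocyte functions. The cells had been transduced with the lentiCRISPRv2 vector carrying Cas9 and a guide RNA and then selected with puromycin. The control guide targeted the AAVS1 locus (sgCtrl), and the other guides, sgKEAP1-1 and sgKEAP1-2 (sgKeap1-1 and sgKeap1-2 in the sample titles), each targeted KEAP1. Each of the 3 groups had 3 libraries, collected 48 h after seeding, and the same 3 sgCtrl libraries served as the control for both guides. Neither the labels nor the methods describe single-cell clones. In the sample descriptions the 3 libraries with the same number share a date-like prefix that differs between the numbers, but no label says what it stands for or whether the libraries of a group were separate cultures. The p-values therefore measure the spread between these libraries, and a second fit took the replicate number as a block (the replicate block).

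KEAP1 is the adaptor that marks the transcription factor NRF2 for degradation, and when KEAP1 is lost NRF2 accumulates and switches on genes that carry antioxidant response elements. Hepatocytes detoxify compounds by oxidation, then by coupling them to glutathione, glucuronic acid or sulfate, and finally by export: ABCC2, ABCG2 and ABCB1 sit in the apical (bile-facing) membrane, and ABCC3 and ABCC4 in the basolateral (blood-facing) membrane. The comparison asks which of these exporters had more or less mRNA after KEAP1 was targeted.

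With sgKEAP1-1, ABCC2, ABCC3, ABCC4 and ABCC5 rose, each to 1.80 to 2.20 times the control level, and no member fell past the threshold. With sgKEAP1-2 the same 4 genes rose to 1.98 to 2.84 times the control, ABCG2 rose 2.13-fold and ABCB4 fell to 0.464 of the control. ABCB1, the classical multidrug resistance gene, and ABCC10 passed the threshold with neither guide. The test was edgeR's quasi-likelihood test over all 11064 features with enough reads, with a Benjamini-Hochberg adjusted p under 0.05 as the threshold. The 4 members called with sgKEAP1-1 (all higher) stand beside 4.2% of all features called in that comparison, of which 2.8% of features were higher and 1.4% lower. The 6 members called with sgKEAP1-2 (5 higher, 1 lower) stand beside 10.8% of all features, with 5.96% higher and 4.85% lower. With the replicate block 6 members were called with each guide, ABCG2 and, lower, ABCB4 being added with sgKEAP1-1, while the features called went from 465 to 977 with sgKEAP1-1 and from 1196 to 1956 with sgKEAP1-2. The median log2 fold change of the 8 members was 0.86 with sgKEAP1-1 and 1.04 with sgKEAP1-2, and that of all features was -0.00062 and -0.014 in these comparisons.

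**Figure D1:**
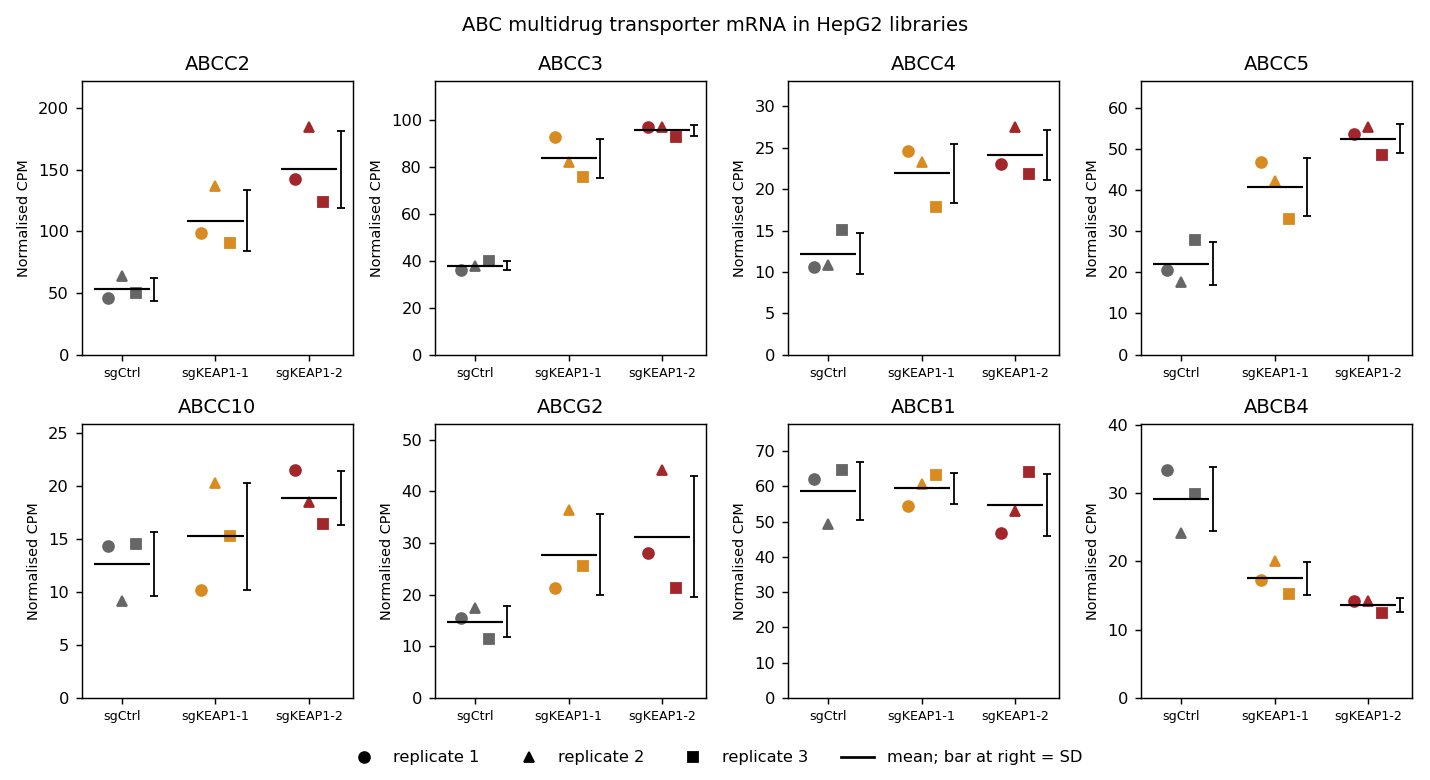
Normalised CPM (counts scaled to a common library size, vertical axis from 0) of the 8 transporters in the 9 HepG2 libraries, by guide group (horizontal axis); each symbol is a library, its shape gives the replicate number, the line is the group mean and the bar at the right is the SD of 3 libraries. All KEAP1 guide libraries lie above all sgCtrl libraries for ABCC2, ABCC3, ABCC4, ABCC5 and ABCG2 and below them for ABCB4, while the 3 groups overlap for ABCB1.

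The libraries held 3011644 to 4725840 counted reads (median 3758185), and the members took 27 to 759 counts per library. QuantSeq libraries read the 3′ end of each transcript, so CPM values of different genes need no length correction. The order of different genes still depends on the annotation used in counting, which is not given in the sources used here. The targeted gene KEAP1 (chr19:10596801-10614234, minus strand, GRCh37) measured 63.3 to 89.2 CPM in sgCtrl, 53.4 to 64.1 with sgKEAP1-1 and 73.9 to 85.6 with sgKEAP1-2. Reads from its 3′ end do not show whether the guides' target sites were edited. By immunoblot of HepG2 cells with these guides, the study reported that NRF2 expression rose markedly when KEAP1 was lost. On the first principal component (43.3% of variance) the sgCtrl libraries separated from the other 6, and on the second (21.1%) the libraries numbered 2 lay at one end and replicate 3 of sgKEAP1-2 at the other. All 15 hepatocyte marker genes were listed, albumin and alpha-fetoprotein among them. With sgKEAP1-1, 9 of the 15 fell and 1 rose, beside 1.4% of all features lower and 2.8% higher. With sgKEAP1-2, 10 fell and 1 (TTR) rose, beside 4.85% lower and 5.96% higher. Their summed level was 44330 to 57090 CPM in sgCtrl, 30027 to 39700 with sgKEAP1-1 and 26163 to 30385 with sgKEAP1-2. Of 6 bile duct cell markers 4 were listed. KRT19 and SPP1 rose with both guides, beside 2.8% of all features higher with sgKEAP1-1 and 5.96% with sgKEAP1-2. SOX9 (log2 fold changes -0.090 and -0.28) and EPCAM (0.053 and -0.24) did not pass the threshold. The sum of the 4, in which SPP1 alone went from a mean of 175 CPM in sgCtrl to 1099 and 1482 CPM, went from 831 to 912 CPM in sgCtrl to 1960 to 2297 with sgKEAP1-1 and 2047 to 2797 with sgKEAP1-2. None of 5 endothelial markers was listed, and the 2 listed fibroblast markers and the 2 listed leukocyte markers summed to at most 16.0 CPM each in any library. These marker changes ran beside the transporter changes, and their part in them was not tested.

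The promoters of 7 members, in 14 start-site windows, were available from RefSeq (GRCh38.p14), each spanning 250 bases before to 50 bases after a start. They include 2 windows of ABCC6, whose mRNA was not analysed here, and none of ABCC1, ABCC3 or ABCB4. The letters TGACNNNGC, the core of the antioxidant response element that NRF2 binds, were searched for on both strands. They occurred in 3 of the 14 windows, in ABCC4, ABCC10 and ABCG2, and in 13.3% of all 35116 windows of that length. A match is only a match of letters. A window without one does not show that the gene lacks the element, as bases outside the windows were not searched. The stretches below show ABCC2, which had the largest fold change with sgKEAP1-2 and no match in its window, and the 2 members with a match before the start, of which ABCC4 rose and ABCC10 did not pass the test. Capitals mark the match, which in ABCC4 lies on the opposite strand and so reads as the reverse complement.
ABCC2 (GRCh38.p14, chr10:99782520-99782639, plus strand, the last 120 bases before the start): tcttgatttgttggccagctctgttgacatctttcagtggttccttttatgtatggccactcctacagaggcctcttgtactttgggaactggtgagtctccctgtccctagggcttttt
ABCC4 (GRCh38.p14, chr13:95301552-95301640, minus strand, match 149 to 141 bases before the start): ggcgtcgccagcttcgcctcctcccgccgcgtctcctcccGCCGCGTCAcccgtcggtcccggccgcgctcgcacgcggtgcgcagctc
ABCC10 (GRCh38.p14, chr6:43427358-43427446, plus strand, match 143 to 135 bases before the start): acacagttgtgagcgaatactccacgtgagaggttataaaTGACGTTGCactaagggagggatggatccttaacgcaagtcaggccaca

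ABCC2 (MRP2; chr10:101542397-101612351, plus strand, GRCh37) exports glucuronide and glutathione conjugates, bilirubin glucuronides among them, into bile. Its level was 45.6, 63.6 and 50.2 CPM in sgCtrl replicates 1 to 3. It was 99.1, 137 and 90.5 CPM in the sgKEAP1-1 replicates and 142, 185 and 124 CPM in the sgKEAP1-2 replicates. In ABCC2, as in 5 of the 8 members, all 6 KEAP1 guide libraries lay above all controls, beside 8.04% of all features, and replicate 2 was the highest library in each group. The log2 fold change against sgCtrl was 1.04 ± 0.20 (SE; adjusted p = 0.00618) with sgKEAP1-1 and 1.51 ± 0.20 (adjusted p = 0.000168) with sgKEAP1-2. With sgKEAP1-1 the adjusted p was 0.0504 when sgCtrl replicate 1 was left out. As RNA was taken from bulk cultures, more RNA per cell and more cells with the RNA cannot be told apart, here and for the other members.

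ABCC3 (MRP3; chr17:48712138-48769614, plus strand, GRCh37) exports glucuronides and bile acids through the basolateral membrane. Its level was 36.0, 37.8 and 40.2 CPM in the sgCtrl libraries. It was 92.8, 82.35 and 76.0 CPM with sgKEAP1-1 and 97.3, 97.1 and 93.0 CPM with sgKEAP1-2. The groups did not overlap, and the SD was 2.07 CPM in sgCtrl, 8.49 CPM with sgKEAP1-1 and 2.39 CPM with sgKEAP1-2. Against sgCtrl, ABCC3 had a log2 fold change of 1.14 ± 0.13 (adjusted p = 0.000116) with sgKEAP1-1 and 1.33 ± 0.13 (adjusted p = 1.36e-05) with sgKEAP1-2, and both calls held in all 19 alternative analyses.

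ABCC4 (MRP4; chr13:95672089-95953729, minus strand, GRCh37) exports cyclic nucleotides, prostaglandins and bile acids. It had the lowest mean of the members in sgCtrl, with 10.6, 10.9 and 15.1 CPM from 32 to 54 counts. It had 24.6, 23.3 and 17.9 CPM with sgKEAP1-1 and 23.1, 27.6 and 21.8 CPM with sgKEAP1-2. All 6 KEAP1 guide libraries lay above the controls, although sgKEAP1-1 replicate 3 was close to sgCtrl replicate 3. For ABCC4 the log2 fold change was 0.85 ± 0.22 (adjusted p = 0.0445) with sgKEAP1-1 and 0.98 ± 0.22 (adjusted p = 0.0094) with sgKEAP1-2. The first call was lost without sgCtrl replicate 1 (adjusted p = 0.202), sgCtrl replicate 2 (0.128), sgKEAP1-1 replicate 1 (0.177) or 2 (0.120) or sgKEAP1-2 replicate 1 (0.0704), and with limma-voom (0.0586), in a fit of only these groups (0.0512) and with a stricter count filter (0.0509). The second call was lost without sgCtrl replicate 1 (adjusted p = 0.0554).

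ABCC5 (MRP5; chr3:183637722-183735727, minus strand, GRCh37) exports cyclic nucleotides and nucleotide analogues. It had 20.7, 17.7 and 27.9 CPM in sgCtrl, 46.8, 42.3 and 32.9 CPM with sgKEAP1-1, and 53.6, 55.4 and 48.5 CPM with sgKEAP1-2. The sgKEAP1-2 libraries lay above every sgKEAP1-1 library, which in turn lay above every control. The log2 fold change was 0.87 ± 0.20 (adjusted p = 0.0180) with sgKEAP1-1 and 1.24 ± 0.19 (adjusted p = 0.00075) with sgKEAP1-2. The call with sgKEAP1-1 was lost without sgCtrl replicate 1 (adjusted p = 0.103), sgCtrl replicate 2 (0.0747), sgKEAP1-1 replicate 1 (0.1002) or sgKEAP1-1 replicate 2 (0.0521), and the call with sgKEAP1-2 held throughout.

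ABCC10 (MRP7; chr6:43395104-43418165, plus strand, GRCh37) can export taxanes and the glucuronide of oestradiol. It had 14.3, 9.19 and 14.5 CPM in sgCtrl, 10.2, 20.3 and 15.3 CPM with sgKEAP1-1, and 21.5, 18.5 and 16.5 CPM with sgKEAP1-2. With sgKEAP1-1, replicate 1 lay within the range of the controls and the other libraries above it, and the sgKEAP1-2 libraries all lay above them. The log2 fold change was 0.26 with sgKEAP1-1 (95% interval -0.32 to 0.85, adjusted p = 0.761) and 0.56 with sgKEAP1-2 (-0.023 to 1.14, adjusted p = 0.234). With sgKEAP1-1 the sign turned to -0.0076 without sgKEAP1-1 replicate 2. An exon of DLK2 on the opposite strand overlaps ABCC10 by up to 76 bases, DLK2 is also in the table, and the strand setting of the counting is not given in the sources used here.

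ABCG2 (BCRP; chr4:89011302-89152780, minus strand, GRCh37) exports urate, porphyrins and sulfate conjugates. It had 15.4, 17.4 and 11.4 CPM in sgCtrl, 21.2, 36.4 and 25.5 CPM with sgKEAP1-1, and 28.0, 44.1 and 21.3 CPM with sgKEAP1-2. All KEAP1 guide libraries lay above the controls, but the spread was wide, with an SD of 11.7 CPM with sgKEAP1-2, and replicate 2 was again the highest in each group. ABCG2 had a log2 fold change of 0.92 ± 0.29 (adjusted p = 0.106) with sgKEAP1-1 and 1.09 ± 0.29 (adjusted p = 0.0270) with sgKEAP1-2. The second call was lost without sgCtrl replicate 1 (adjusted p = 0.0847), sgCtrl replicate 3 (0.120), sgKEAP1-2 replicate 1 (0.0515) or sgKEAP1-2 replicate 2 (0.117), and with limma-voom (0.0535). With sgKEAP1-1 the gene passed the threshold without sgKEAP1-2 replicate 2 (adjusted p = 0.0476) or 3 (0.0411), in a fit of only these groups (0.0448) and with the replicate block (0.00646).

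ABCB1 (MDR1; chr7:87132333-87342639, minus strand, GRCh37) exports a wide range of hydrophobic drugs. It had 62.0, 49.3 and 64.7 CPM in sgCtrl, 54.6, 60.8 and 63.1 CPM with sgKEAP1-1, and 46.8, 52.9 and 64.2 CPM with sgKEAP1-2. The 3 groups covered one range, and the gene was among the better counted members, with at least 145 counts per library. ABCB1 had a log2 fold change of 0.02 with sgKEAP1-1 (95% interval -0.32 to 0.36, adjusted p = 0.983) and -0.10 with sgKEAP1-2 (-0.44 to 0.24, adjusted p = 0.770). Its sign with sgKEAP1-1 turned without sgCtrl replicate 2 (-0.091), sgKEAP1-1 replicate 2 (-0.0011) or sgKEAP1-1 replicate 3 (-0.026).

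ABCB4 (MDR3; chr7:87031012-87109751, minus strand, GRCh37) moves phosphatidylcholine into the outer leaflet of the bile-facing membrane, from where it enters bile. It had 33.4, 24.2 and 29.8 CPM in sgCtrl, 17.3, 20.04 and 15.3 CPM with sgKEAP1-1, and 14.2, 14.1 and 12.4 CPM with sgKEAP1-2. It was the only member whose 6 KEAP1 guide libraries all lay below the controls, beside 6.74% of all features. For ABCB4 it was -0.73 ± 0.20 on the log2 scale with sgKEAP1-1, just short of the threshold (adjusted p = 0.0501), and -1.11 ± 0.20 with sgKEAP1-2 (adjusted p = 0.00228). With sgKEAP1-1 the gene passed the threshold without sgCtrl replicate 2 (adjusted p = 0.0381) or sgKEAP1-2 replicate 3 (0.0342), with limma-voom (0.0491), with DESeq2 (0.0396), in a fit of only these groups (0.0498) and with the replicate block (0.0209).

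ABCB1 and ABCB4 are neighbours on the same strand of chromosome 7, separated by 22581 bases. The ratio of ABCB4 to ABCB1 counts within a library was 0.538, 0.490 and 0.461 in sgCtrl. It was 0.317, 0.330 and 0.242 with sgKEAP1-1 and 0.303, 0.267 and 0.192 with sgKEAP1-2. Every KEAP1 guide library lay below every control in this ratio, which does not depend on the scaling between libraries. This contrast of neighbours was noticed in the data and was given no test.

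Counted by overlap alone, 5 of the 8 members had all sgKEAP1-1 libraries above all sgCtrl libraries, beside 11.5% of all features, and 6 of the 8 had all sgKEAP1-2 libraries above them, beside 14.3% of all features. ABCB4 was the member on the lower side, beside 10.3% and 13.7% of all features in these comparisons. The number of calls depended on single libraries: with sgKEAP1-1 it went from 4 (465 features called) to 1 without sgCtrl replicate 1 (278 features), to 2 without sgKEAP1-1 replicate 1 (285 features) and to 2 without sgKEAP1-1 replicate 2 (356 features). It rose to 5 without sgKEAP1-2 replicate 2 (492 features) and to 6 without sgKEAP1-2 replicate 3 (688 features). When the 3 libraries numbered 2, which stood apart on the second component, were left out, 3 members were called with sgKEAP1-1 (ABCC2, ABCC3 and, lower, ABCB4) and 4 with sgKEAP1-2 (ABCC2, ABCC3, ABCC5 and, lower, ABCB4), where 404 and 951 of 11122 features were called. Without those libraries the log2 fold change with sgKEAP1-1 was 0.98 for ABCC2, 1.14 for ABCC3 and -0.96 for ABCB4 (adjusted p = 0.0324). Those called with sgKEAP1-2 were then at 1.48 for ABCC2, 1.33 for ABCC3, 1.08 for ABCC5 and -1.25 for ABCB4. ABCC4 (adjusted p = 0.213 with sgKEAP1-1 and 0.0855 with sgKEAP1-2), ABCC5 with sgKEAP1-1 (0.128) and ABCG2 with sgKEAP1-2 (0.0541) missed the threshold without them. The log2 fold changes with sgKEAP1-1 turned to -0.19 for ABCC10 and -0.11 for ABCB1 without them.

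**Figure D2:**
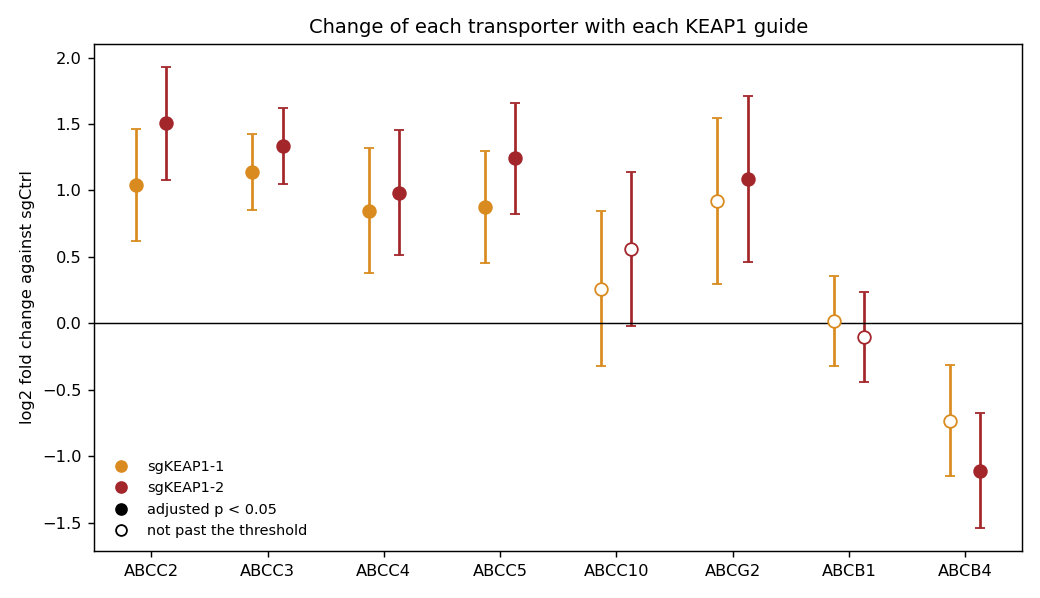
Log2 fold change of each transporter against sgCtrl (vertical axis) with sgKEAP1-1 and sgKEAP1-2, with 95% intervals from edgeR's quasi-likelihood fit; filled points passed an adjusted p of 0.05. ABCC2, ABCC3, ABCC4 and ABCC5 are filled and above 0 with both guides, ABCB4 is below 0 and filled with sgKEAP1-2, and the intervals of ABCB1 and ABCC10 include 0.

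The guides were also compared with each other. No member passed the threshold between sgKEAP1-2 and sgKEAP1-1 by edgeR, limma-voom or DESeq2, where 0.0181% of all features (2 of 11064) did by edgeR, and 1 member, ABCC2, had an unadjusted p under 0.05 by edgeR (0 without sgKEAP1-1 replicate 3 or sgKEAP1-2 replicate 2, ABCC5 in its place without sgKEAP1-1 replicate 1, and both genes with the replicate block, with limma-voom or without sgKEAP1-2 replicate 3). For ABCC2 the difference was 0.47 on the log2 scale, higher with sgKEAP1-2 (95% interval 0.060 to 0.87, unadjusted p = 0.0273, adjusted p = 0.927), and it was 0.30 without sgKEAP1-2 replicate 2. The difference was 0.37 for ABCC5 (-0.029 to 0.76), 0.19 for ABCC3 (-0.076 to 0.46) and 0.14 for ABCC4 (-0.30 to 0.58). It was 0.30 for ABCC10 (-0.27 to 0.86), 0.17 for ABCG2 (-0.42 to 0.75), -0.12 for ABCB1 (-0.46 to 0.22) and -0.38 for ABCB4 (-0.81 to 0.062). When each library was left out in turn, it ranged from 0.24 to 0.48 for ABCC5, 0.13 to 0.27 for ABCC3 and 0.013 to 0.23 for ABCC4. The range was 0.077 to 0.57 for ABCC10, -0.17 to 0.43 for ABCG2, -0.25 to -0.022 for ABCB1 and -0.46 to -0.26 for ABCB4. The libraries of the guides did not overlap for ABCC3 and ABCC5 (higher with sgKEAP1-2, beside 5.5% of all features) and for ABCB4 (lower, beside 4.93%). The 95% intervals do not show that the guides acted alike, and 6 of the 8 members had the higher level with sgKEAP1-2, beside 49.4% of all features. Over all features, DESeq2 called 19 between the guides and limma-voom 0, and 562 (5.08%) had an unadjusted p under 0.05 by edgeR.

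The order of abundance among the members shifted. In sgCtrl, ABCB1 (58.7 ± 8.20 CPM, SD, n = 3) and ABCC2 (53.1 ± 9.38 CPM) were the highest and overlapped. ABCC3 (38.0 ± 2.07 CPM) came next, above the overlapping ABCB4 (29.1 ± 4.65 CPM) and ABCC5 (22.1 ± 5.24 CPM). ABCG2 (14.7 ± 3.01 CPM), ABCC10 (12.7 ± 3.01 CPM) and ABCC4 (12.2 ± 2.49 CPM) came last, with neighbours that overlapped.

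With sgKEAP1-1, ABCC2 (109 ± 24.6 CPM) and ABCC3 (83.7 ± 8.49 CPM) overlapped at the top, ahead of ABCB1 (59.5 ± 4.42 CPM), and the rest followed from ABCC5 (40.6 ± 7.09 CPM) to ABCC10 (15.2 ± 5.02 CPM), with each neighbour overlapping the next. With sgKEAP1-2, ABCC2 (150 ± 31.5 CPM) stood above ABCC3 (95.8 ± 2.39 CPM) without overlap. ABCB1 (54.6 ± 8.83 CPM) and ABCC5 (52.5 ± 3.58 CPM) then overlapped, and ABCG2 (31.2 ± 11.7 CPM) overlapped ABCC4 (24.2 ± 3.02 CPM). ABCC10 (18.9 ± 2.55 CPM) and, last, ABCB4 (13.6 ± 1.04 CPM) did not overlap their neighbours.

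Summed over the 8 members, the level was 241 ± 12.1 CPM in sgCtrl, 375 ± 43.6 CPM with sgKEAP1-1 and 441 ± 48.3 CPM with sgKEAP1-2 (SD, n = 3). ABCC2 made up 22.2 ± 4.74% of these reads in sgCtrl, 28.8 ± 3.14% with sgKEAP1-1 and 33.9 ± 3.32% with sgKEAP1-2. ABCC3 made up 15.8 ± 0.638%, 22.5 ± 2.91% and 21.9 ± 1.96% in the same order. ABCB1, whose level did not pass the test, went from 24.3 ± 2.51% in sgCtrl to 16.0 ± 2.39% and 12.6 ± 2.98%. ABCB4 went from 12.1 ± 1.79% in sgCtrl to 4.67 ± 0.115% with sgKEAP1-1 and 3.09 ± 0.230% with sgKEAP1-2. The shares of ABCC2, ABCC4, ABCC5, ABCC10 and ABCG2 overlapped between sgCtrl and sgKEAP1-1. With sgKEAP1-2 the share of ABCC2 (30.8 to 37.4%, against 19.2 to 27.7% in sgCtrl) and that of ABCC5 (11.2 to 12.6%, against 7.69 to 11.0%) lay above their ranges in sgCtrl, and those of ABCC4, ABCC10 and ABCG2 overlapped.

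**Figure D3:**
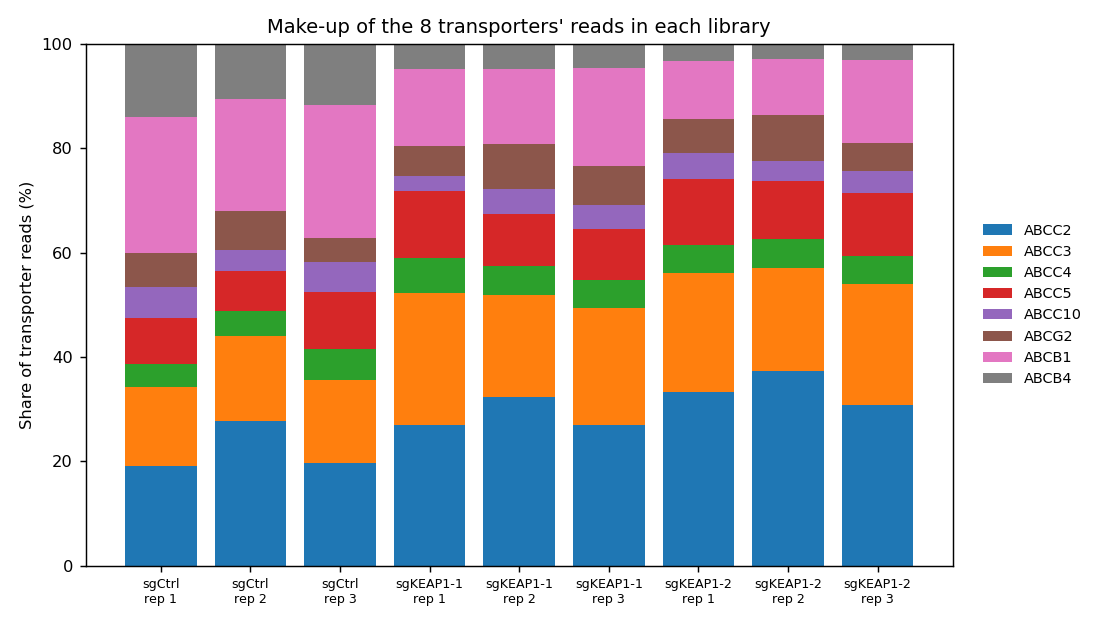
Share (%) of the counts of the 8 transporters taken by each gene, in each of the 9 libraries (stacked bars, each summing to 100%). ABCC2 and ABCC3 together take more of the bar in every KEAP1 guide library than in any sgCtrl library, and ABCB1 and ABCB4 take less.

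The genes with the profile most like each called member over the 9 libraries were looked up among 9799 features, by Pearson's r of log2 CPM. The libraries share the group differences, so r is given as a description, and the r within groups (after the group means were removed) is given beside it. For ABCC2 they were SLC4A11 (a membrane transporter, r = 0.993, within groups 0.948), SQSTM1 (the autophagy receptor p62, 0.993 and 0.959) and TAX1BP1 (another autophagy receptor, 0.992 and 0.956). For ABCC3 they were PTGR1 (prostaglandin reductase, 0.993 and 0.639), NOTCH3 (0.991 and 0.619) and NQO1 (the quinone reductase, 0.991 and 0.498). As these genes were picked for a high r over all libraries, which contains the part within groups, the values within groups are not independent of the choice.

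For ABCC5 the nearest were FLII (r = 0.992, within groups 0.958), CD63 (0.988 and 0.931) and DBN1 (0.985 and 0.912). For ABCC4 they were DBN1 (0.985 and 0.918), FLII (0.982 and 0.952) and FGD6 (0.982 and 0.894), so that FLII and DBN1 stood near both genes. ABCG2 was nearest to PRDX5 (a peroxiredoxin, 0.983 and 0.955), RRAS2 (0.982 and 0.963) and RICTOR (0.976 and 0.966). ABCB4 was nearest to SPTLC3 (a subunit of serine palmitoyltransferase, 0.986 and 0.945), HIPK2 (0.981 and 0.920) and SOBP (0.980 and 0.813).

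The other ABC genes gave a comparison within the family. Of 38 further ABC genes 18 were listed and 17 tested, and edgeR's test, limma-voom and DESeq2 each called 0 of them with either guide. Of all features, edgeR called 4.2% with sgKEAP1-1 and 10.8% with sgKEAP1-2. By edgeR 3 of the 17 had an unadjusted p under 0.05 with sgKEAP1-1, beside 15% of all features, and 5 with sgKEAP1-2, beside 23.3% of all features, and the list medians were 0.11 and 0.074 on the log2 scale. With the replicate block ABCA1 and ABCA4 were called with sgKEAP1-1, where 977 of all 11064 features were. ABCA1, ABCA4 and ABCB9 were called with sgKEAP1-2, where 1956 of 11064 were. ABCA4 had 0 to 3 counts in sgCtrl, 4 to 13 with sgKEAP1-1 and 2 to 17 with sgKEAP1-2. It passed the count filter only through the KEAP1 guide libraries. ABCA1 also passed with sgKEAP1-1 in a fit of only these groups, and leaving out a library brought in ABCA1 with sgKEAP1-1 and ABCB9 with sgKEAP1-2 (both without sgKEAP1-2 replicate 3) and ABCA4 with sgKEAP1-2 (without sgKEAP1-2 replicate 2). ABCA1, the cholesterol exporter, had 87.1 ± 11.3 CPM in sgCtrl, 59.0 ± 5.87 CPM with sgKEAP1-1 and 63.7 ± 11.5 CPM with sgKEAP1-2. Its log2 fold changes of -0.56 (adjusted p = 0.0705) and -0.45 (adjusted p = 0.0955) did not pass, and neither did that of ABCB9, a lysosomal peptide transporter, at -0.94 with sgKEAP1-2 (adjusted p = 0.0978). ABCG5 and ABCG8, which form the sterol exporter of the bile-facing membrane, were at -0.28 and -0.41 with sgKEAP1-1 and at -0.17 and -0.50 with sgKEAP1-2, with no adjusted p under 0.39. ABCA1, ABCA4, ABCB9, ABCG5 and ABCG8 were named after their values were seen.

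The enzymes that make the exporters' substrates were described in the same way, from lists of related genes. Of 15 tested genes of glutathione supply and conjugation, 6 rose with sgKEAP1-1, beside 2.8% of all features, and 7 with sgKEAP1-2, beside 5.96%, and none fell. The largest increases with sgKEAP1-2 were GSTA2 (6.31 ± 0.858 CPM in sgCtrl against 101 ± 27.5 CPM) and GSTA1 (44.1 ± 2.53 against 207 ± 34.5 CPM), glutathione transferases whose near-identical sequences can share reads. Of 11 tested genes of glucuronide and sulfate conjugation, 5 rose with each guide, beside the same shares. With sgKEAP1-2 SULT1C2 also fell (log2 fold change -2.02 ± 0.48, from 9 to 35 counts in sgCtrl to 5 or 6), beside 4.85% of all features. The 5 include UGT1A1, which conjugates bilirubin and passed the count filter only through the KEAP1 guide libraries. For this gene the comparison with the share of all features is no test, as its own rise selected it. UGT1A1 had 0 to 2 counts per library in sgCtrl, 27 to 35 with sgKEAP1-1 and 29 to 45 with sgKEAP1-2. The UGT1A genes share their 3′ exons, so these reads may belong to other UGT1A transcripts. SULT1A2 rose by 1.34 ± 0.15 on the log2 scale with sgKEAP1-2 and may share reads with SULT1A1.

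The last set of substrate handlers was the carriers that bring bile acids and drugs into cells or exchange them. Of 11 tested, 3 fell with sgKEAP1-1, beside 1.4% of all features, and 4 with sgKEAP1-2, beside 4.85%. With sgKEAP1-2 1 rose, beside 5.96%, while 8 and 6 passed the threshold in neither direction. SLCO4C1 went from 33.7 ± 6.53 CPM in sgCtrl to 9.22 ± 2.36 CPM with sgKEAP1-1 and 3.11 ± 0.665 CPM with sgKEAP1-2. SLC22A7 (OAT2), an organic anion transporter, fell by 2.42 ± 0.56 and by 2.00 ± 0.54 on the log2 scale. These rest on low counts, 21 to 58 per library in sgCtrl, 2 to 14 with sgKEAP1-1 and 4 to 17 with sgKEAP1-2. SLCO2B1, an organic anion uptake carrier, was the member of this list that rose with sgKEAP1-2 (log2 fold change 1.01 ± 0.27).

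Among 17 tested transcription factors of transporter genes, RXRA, the partner of several nuclear receptors, fell with sgKEAP1-1 (log2 fold change -0.57 ± 0.13), 1 of 17 beside 1.4% of all features. With sgKEAP1-2, HNF4A, a hepatocyte nuclear receptor, fell by 0.56 ± 0.13 on the log2 scale. NFE2L2, which encodes NRF2, fell by 0.49 ± 0.14 and RXRA by 0.48 ± 0.13 on that scale. These were 3 of 17, beside 4.85% of all features, and none of the 17 rose with either guide. The values are of mRNA and not of protein: by immunoblot the study reported a marked rise of NRF2 after KEAP1 loss. Among 10 tested genes that anchor or traffic apical membrane proteins, RDX and STX3 rose with both guides, beside 2.8% of all features with sgKEAP1-1 and 5.96% with sgKEAP1-2. RDX encodes radixin, which ties ABCC2 to the actin cortex, and it had 245 ± 11.9 CPM in sgCtrl and 449 ± 15.1 CPM with sgKEAP1-2. STX3 encodes an apical syntaxin, and it had 24.6 ± 2.71 CPM in sgCtrl and 49.5 ± 10.6 CPM with sgKEAP1-2. NHERF1, a scaffold protein of apical membranes, fell with sgKEAP1-2 (log2 fold change -0.38 ± 0.11, adjusted p = 0.0427), beside 4.85% of all features.

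**Figure D4:**
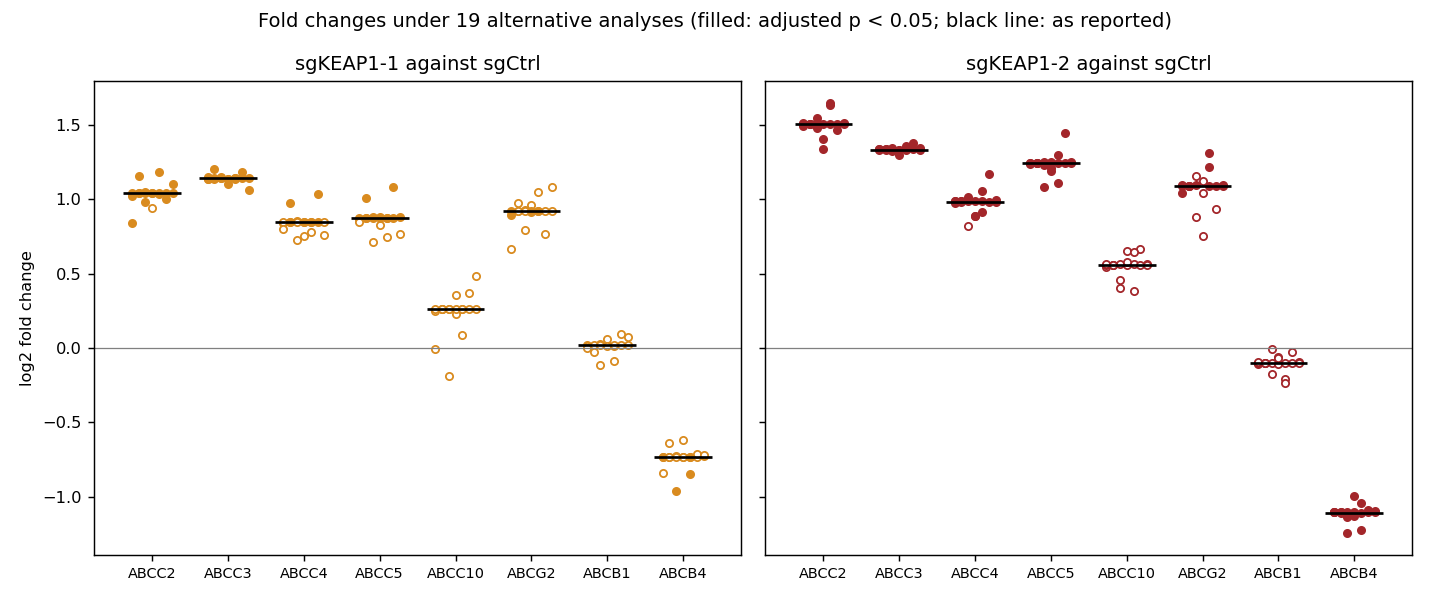
Log2 fold change (vertical axis) of each transporter against sgCtrl in 19 alternative analyses (circles, filled where the adjusted p was under 0.05) and as reported (black line). ABCC3 is filled in every alternative with both guides, and ABCC2, ABCC5 and ABCB4 with sgKEAP1-2, while circles of ABCC4 and ABCC5 with sgKEAP1-1 and of ABCG2 with sgKEAP1-2 are open in some.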

How the data were processed

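RNA from 9 HepG2 libraries was prepared with the QuantSeq 3′ kit and sequenced as single-end reads. The authors deposited whole-number counts of reads per gene. The submitters' processing notes list FastQC 0.72, cutadapt 1.16, STAR 2.7.5b, featureCounts 1.6.3, limma 3.40.6 and the build hg38, whereas the study's methods name hg19; the annotation and strand setting are not given in the sources used here. All 12798 deposited features exceed 0.5 CPM in 3 or more libraries, which points to a filter before deposit.

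Features without a gene number (1052, holding 1.34% of reads) were left out. Counts were filtered with filterByExpr (11064 of 11746 kept), scaled by TMM and tested with edgeR 4.0.16 (quasi-likelihood, robust, R 4.3.3) in one fit of all 9 libraries with group as the factor. Each standard error is the size of the fold change (log2) over the root of F. Log2 CPM used a prior count of 2. Alternatives were a replicate block, DESeq2 size factors, library size only, limma-voom (limma 3.58.1), DESeq2 1.42.0, a looser filter (1 count in all) and a stricter one (10 counts in each library), a fit of the compared groups alone, and leaving out each library in turn.

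The members, lists and tests were chosen with earlier results of these data known. Named genes were the members, KEAP1, the 2 largest called increases and decreases of each list with sgKEAP1-2, and the 3 features most like each called member (mean of at least 20 counts). Cell markers were to be given as counts and sums. The single markers TTR, KRT19, SPP1, SOX9 and EPCAM, further ABC genes, and RXRA were named after their values were seen. Gene positions are from GENCODE v44lift37 (GRCh37), and promoter sequences are from RefSeq on GRCh38.p14.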

Additional observations from a re-analysis of the deposited data

How the results depend on the processing

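Over 19 alternatives, 415 member fold changes kept their direction and their side of the threshold, 23 lost a call, 11 gained one and 7 changed sign. These counts pool each guide against sgCtrl with the comparison of the guides. Fold changes not called at first, among them all between the guides and those of ABCB1 and ABCC10, had no call to lose. By contrast, ABCC4 with sgKEAP1-1 lost its call in 9 of the 19 alternatives. The changes of sign were in ABCC10 with sgKEAP1-1 (-0.0076 to 0.48 when each library was left out in turn, below 0 without sgKEAP1-1 replicate 2; -0.19 without the libraries numbered 2), in ABCB1 with sgKEAP1-1 (-0.091 to 0.093, below 0 without sgCtrl replicate 2, sgKEAP1-1 replicate 2 or sgKEAP1-1 replicate 3; -0.11 without the libraries numbered 2) and in ABCG2 between the guides (-0.17 to 0.43, below 0 without sgKEAP1-2 replicate 2); none of these was called, and the cause was not tested. Leaving out each library in turn gave 278 to 688 features and 1 to 6 members called with sgKEAP1-1, 764 to 1291 features and 4 to 6 members with sgKEAP1-2, and 0 to 2 features and 0 members between the guides. Between the guides, limma-voom, at least 10 counts in every library and a fit of only these groups each called 0 features, and DESeq2 called 19.

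With the replicate number as a block, 977 features (565 higher, 412 lower) were called with sgKEAP1-1, 1956 (1008 higher, 948 lower) with sgKEAP1-2 and 26 between the guides. Under the block, 6 members were called with each guide, since ABCB4 (-0.73, adjusted p = 0.0209) and ABCG2 (0.89, adjusted p = 0.00646) passed with sgKEAP1-1; it changed no other member's call. Of the other ABC genes it called ABCA1 and ABCA4 with sgKEAP1-1 and ABCA1, ABCA4 and ABCB9 with sgKEAP1-2, against 0 without it. Same-numbered libraries share a prefix in the sample descriptions whose meaning is not given. Their deviations from the group means correlated at over 0.1 in 7 of 9 pairs (-0.013 to 0.52), and 7 of 9 libraries correlated best with their own number. The correlations were 0.34 to 0.52 for the libraries numbered 2, -0.013 to 0.23 for those numbered 1 and 0.16 to 0.21 for those numbered 3. They were given no test. Leaving out the libraries numbered 2 and keeping features without a gene number were chosen after seeing the data. The intervals were widest for ABCC4, ABCC10 and ABCG2, and whether depth sets this was not tested.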
